A study of Mus musculus with 10 samples.

Results

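The Wnt genes encode secreted signalling proteins, and 10 of them were examined as Polycomb group (PcG) targets in mouse embryonic stem cells (ESCs) and neural stem cells (NSCs). The genes were Wnt1, Wnt2, Wnt3, Wnt3a, Wnt5a, Wnt6, Wnt7b, Wnt10a, Wnt10b and Wnt11. This list was chosen with earlier results of these data known. It was taken from the 22350 protein-coding genes that the GENCODE annotation of mm9 places on the 20 chromosomes with peaks. Each Wnt gene was located by its symbol, and all 10 were found once. For every gene, peaks were collected over the gene body plus 10 kb on either side, which is called its window below. The start site (TSS) was the 5′ end of the annotated gene. ChIP-seq was performed in J1 ESCs, a line grown on feeders with serum and leukemia inhibitory factor and depleted of feeders before harvest, for Ring1b, Cbx2, Ezh2 and H3K27me3. NSCs, which by the sample labels came from J1 ESCs through differentiation in culture and were kept in EGF and FGF, were profiled for Ring1b and H3K27me3. No group carries a transgene or a drug treatment by the labels, and 1 library was made per target in each cell type. None of the differences below therefore has a replicate check, and no test was run. Each list comes from 1 ESC line or from NSCs derived from it, and the lists give starts and ends of peaks with no height, so binding that did not reach the calling threshold cannot be seen.

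Wnt proteins bind Frizzled receptors and their coreceptors. In the canonical branch this stabilizes β-catenin, which then acts with TCF and LEF factors in the nucleus, whereas other Wnt proteins act on cell shape and movement without it. Most Wnt genes are silent in a given cell and are switched on in narrow domains of the embryo, and in the developing brain they pattern the dorsal midline and the border of midbrain and hindbrain. PcG proteins keep such developmental genes repressed: Ring1b and Cbx2 belong to the PRC1 complex, Ezh2 is the methyltransferase of the PRC2 complex, and H3K27me3 is the mark that Ezh2 places.

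The 6 lists held between 1033 peaks (ESC Cbx2) and 2335 peaks (ESC Ring1b), and the NSC lists held 1389 Ring1b and 1647 H3K27me3 peaks. Tags per library are unknown from the lists. The TSSs of 5 pluripotency genes (Pou5f1, Nanog, Zfp42, Esrrb and Tdgf1) lay in no peak of either cell type, which does not tell the labels apart. Of 5 neural genes (Nes, Pax6, Olig2, Fabp7 and Slc1a3), 3 had the TSS in an ESC Ring1b peak, against 7.03% of all genes. In an NSC Ring1b or H3K27me3 peak there were 0, a count that the shares of all genes (1.74% and 1.77%) would also give.

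In ESCs every one of the 10 Wnt genes had its TSS inside a Ring1b peak. Over all protein-coding genes this share was 7.03%. The 10 were chosen with results of these lists known, so shares of all genes here and below are context and not a test. Ezh2 peaks held the TSS of 8 Wnt genes (2.56% of all genes), with Wnt2 and Wnt6 outside them. H3K27me3 peaks also held 8 (4.31% of all genes), with Wnt2 and Wnt3 outside them. Cbx2 peaks held 3, those of Wnt6, Wnt7b and Wnt10b, against 1.15% of all genes. Set against only the 1571 genes with the TSS in an ESC Ring1b peak, the shares were 34.5% for Ezh2, 47.0% for H3K27me3 and 15.8% for Cbx2. The Ring1b peak at the TSS overlapped peaks of all the other ESC lists at 5 Wnt genes, Wnt1, Wnt5a, Wnt6, Wnt7b and Wnt10b, compared with 1.55% of all genes.

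Counted over whole windows, Ring1b peaks occurred at 10 Wnt genes in ESCs, Ezh2 peaks at 9, H3K27me3 peaks at 9 and Cbx2 peaks at 5. The shares of all genes with such a peak were 11.5% for Ring1b, 5.28% for Ezh2, 9.97% for H3K27me3 and 3.09% for Cbx2. The 10 windows span 432 kb once overlapping windows are joined. Ring1b peaks covered 70.4 kb of them (16.3%), H3K27me3 peaks 44.4 kb (10.3%), Ezh2 peaks 36.2 kb (8.39%) and Cbx2 peaks 16.0 kb (3.71%). Over the windows of all genes these shares were 0.586%, 0.364%, 0.213% and 0.169% in the same order. The median Wnt window was 19.6% covered by ESC Ring1b, while the median over the 1571 Ring1b genes was 4.87%. The share covered by a given peak is lower in a longer window, and window lengths were not matched. Joined, the windows of the 1571 genes span 181591 kb, with 6336 kb under ESC Ring1b peaks.

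**Figure D1:**
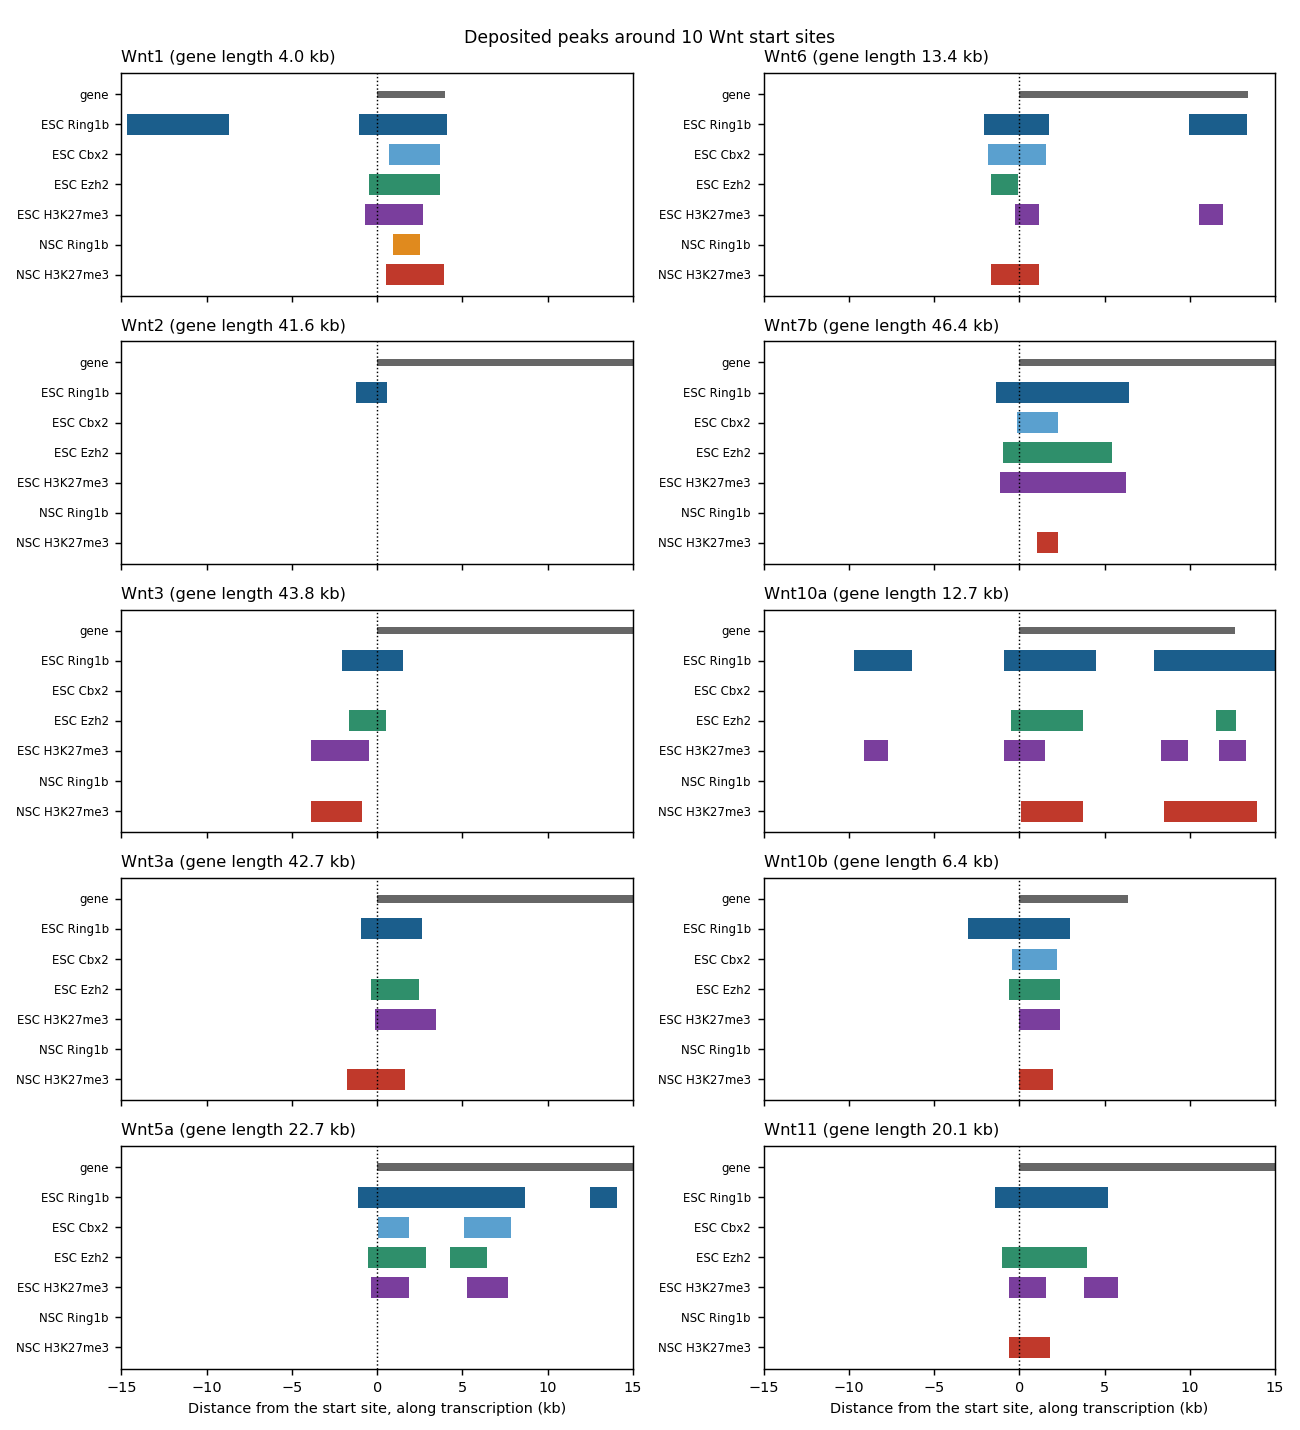
Peaks of the 6 lists (colored bars, 1 library each) by their distance in kb from the TSS (dotted line, positive in the direction of transcription) of each Wnt gene, with the gene body in grey. The axis ends at 15 kb, so distal peaks of Wnt3, Wnt3a, Wnt6, Wnt7b and Wnt10a fall outside it or are cut. An ESC Ring1b bar crosses the TSS in all 10 panels and the NSC Ring1b row holds 1 bar, at Wnt1.

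The sequences just upstream of the TSS are shown for 6 of the genes, because PcG proteins are known to occupy DNA rich in CpG dinucleotides and these promoters differ in that respect while each lay under an ESC Ring1b peak. Each run gives the 200 bases before the TSS in mm9, 5′ to 3′ on the strand of the gene, with CpG dinucleotides in capitals. Wnt3a and Wnt11 kept an H3K27me3 peak over the TSS in NSCs, as did Wnt10b, the only one of the 10 genes whose TSS lay in peaks of all the ESC lists and of NSC H3K27me3. Wnt5a had no peak in NSCs, Wnt10a had the fewest CpGs, and Wnt2 had a Ring1b peak alone.
Wnt3a (chr11:59104255-59104454, reverse strand): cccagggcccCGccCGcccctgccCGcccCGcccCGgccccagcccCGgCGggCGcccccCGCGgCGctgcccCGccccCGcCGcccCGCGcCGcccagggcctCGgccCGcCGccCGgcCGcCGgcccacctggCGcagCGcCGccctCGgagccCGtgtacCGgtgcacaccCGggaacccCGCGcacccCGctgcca
Wnt11 (chr7:105983422-105983621, forward strand): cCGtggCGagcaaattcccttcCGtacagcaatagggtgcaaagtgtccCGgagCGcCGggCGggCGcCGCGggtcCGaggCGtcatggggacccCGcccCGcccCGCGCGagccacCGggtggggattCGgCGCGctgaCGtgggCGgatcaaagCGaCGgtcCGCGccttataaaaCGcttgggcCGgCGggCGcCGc
Wnt10b (chr15:98608582-98608781, reverse strand): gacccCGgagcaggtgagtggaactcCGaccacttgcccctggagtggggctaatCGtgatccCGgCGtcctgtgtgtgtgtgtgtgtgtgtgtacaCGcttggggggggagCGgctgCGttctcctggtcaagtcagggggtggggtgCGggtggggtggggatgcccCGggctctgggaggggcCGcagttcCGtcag
Wnt2 (chr6:17980586-17980785, reverse strand): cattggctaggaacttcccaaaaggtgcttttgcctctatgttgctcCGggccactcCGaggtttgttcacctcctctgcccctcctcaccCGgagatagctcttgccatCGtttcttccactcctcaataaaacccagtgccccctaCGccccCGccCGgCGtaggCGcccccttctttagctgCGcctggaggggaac
Wnt5a (chr14:29317736-29317935, forward strand): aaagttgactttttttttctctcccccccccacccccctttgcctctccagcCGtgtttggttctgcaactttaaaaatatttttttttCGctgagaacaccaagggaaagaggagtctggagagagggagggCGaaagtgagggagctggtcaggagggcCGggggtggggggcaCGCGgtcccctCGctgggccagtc
Wnt10a (chr1:74837890-74838089, forward strand): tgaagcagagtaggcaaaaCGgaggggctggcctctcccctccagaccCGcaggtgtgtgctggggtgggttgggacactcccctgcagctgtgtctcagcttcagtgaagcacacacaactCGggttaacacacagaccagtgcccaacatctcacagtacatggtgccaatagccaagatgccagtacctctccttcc
These stretches hold 33 CpGs at Wnt3a, 32 at Wnt11, 12 at Wnt10b, 10 at Wnt2, 7 at Wnt5a and 3 at Wnt10a. The other genes had 25 (Wnt6), 25 (Wnt7b), 19 (Wnt1) and 15 (Wnt3). The median over all 22350 genes was 7, so that Wnt10a lay below it and Wnt5a at it.

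Among the canonical ligands, Wnt3 and Wnt3a act in the primitive streak, and Wnt3a also in the dorsal neural tube. Wnt3 (ENSMUSG00000000125.5) spans 103635464 to 103679271 of chromosome 11, forward strand. Its ESC Ring1b peak at the TSS, 3600 bp wide, reached from 2063 bp upstream to 1536 bp downstream of it. Its Ezh2 peak of 2200 bp reached from 1663 bp upstream to 536 bp downstream. The ESC H3K27me3 peak nearest the TSS, 3400 bp wide, stopped 464 bp upstream of it, so that the TSS itself was not in an H3K27me3 peak. A further 3 H3K27me3 peaks of 2200 bp, 1600 bp and 1800 bp lay more than 20 kb into the gene, and only the last of them touched an exon block. Directly after that one came another ESC Ring1b peak, 1400 bp wide, which began 35937 bp downstream of the TSS. Wnt3 had no Cbx2 peak in its window.

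Wnt3a (ENSMUSG00000009900.7) lies on the reverse strand of chromosome 11 from 59061535 to 59104254. Ring1b, Ezh2 and H3K27me3 peaks of 3600 bp, 2800 bp and 3600 bp all held its TSS and the start codon in the first exon. They shared 2600 bp. In NSCs the H3K27me3 peak over the TSS was 3400 bp wide, and it reached 1746 bp upstream, where the ESC peak reached 146 bp. The ESC and NSC peaks shared 1800 bp. Together, Wnt3 and Wnt3a had the TSS in Ring1b and Ezh2 peaks in ESCs, and neither had a Cbx2 peak in its window or a Ring1b peak in NSCs.

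Wnt7b, which acts in lung, kidney and brain vessels, had the TSS in peaks of all ESC lists. The gene (ENSMUSG00000022382.7) lies on the reverse strand of chromosome 15 from 85365869 to 85412251. Its Ring1b, H3K27me3 and Ezh2 peaks at the TSS were 7800 bp, 7400 bp and 6400 bp wide, the widest H3K27me3 and Ezh2 peaks over a TSS among the 10 genes, and the Cbx2 peak of 2400 bp lay inside them. All 3 annotated transcript starts were inside the Ring1b, Ezh2 and H3K27me3 peaks. In NSCs a single H3K27me3 peak of 1200 bp was called, from 1051 bp to 2250 bp downstream of the TSS, over 1 of the 3 transcript starts. It lay wholly within the ESC H3K27me3 peak and made up 16.2% of its length.

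Wnt2, a ligand of lung and placental development, had the smallest set of peaks. It (ENSMUSG00000010797.2) lies on the reverse strand of chromosome 6 from 17938940 to 17980585. A Ring1b peak of 1800 bp held the TSS and covered 2.92% of the window, and no other list had a peak in the window. The nearest ESC H3K27me3 peak was 483016 bp from the TSS and the nearest Ezh2 peak 483616 bp. A Ring1b peak with no other list at the TSS was found at 591 protein-coding genes.

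Wnt5a and Wnt11 are the ligands of the group best known for signalling without β-catenin, in limb and axis outgrowth and in cell movements. Wnt5a (ENSMUSG00000021994.8, forward strand of chromosome 14, 29317936 to 29340633) had the widest Ring1b peak at a TSS, 9800 bp, which touched 5 of its 7 exon blocks and held both annotated transcript starts. Under it, Ezh2, H3K27me3 and Cbx2 each had a pair of peaks, near the upstream and the downstream transcript start. The Ezh2 peaks were 3400 bp and 2200 bp wide, the H3K27me3 peaks 2200 bp and 2400 bp, and the Cbx2 peaks 1800 bp and 2800 bp. The upstream Cbx2 peak began 65 bp past the TSS, so the TSS did not count as inside it. In NSCs no peak of either list lay in the Wnt5a window, and the nearest were 1075136 bp (Ring1b) and 1218265 bp (H3K27me3) from the TSS.

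Wnt11 (ENSMUSG00000015957.4) spans 105983622 to 106003705 of chromosome 7, forward strand. A Ring1b peak of 6600 bp and an Ezh2 peak of 5000 bp held its TSS and all 3 transcript starts, while H3K27me3 formed 2 peaks of 2200 bp and 2000 bp with 85.7% of their length under the Ring1b peak. No Cbx2 peak was within 3755422 bp. In NSCs the upstream H3K27me3 peak was again present, 2400 bp wide and starting at the same position, with 91.7% of its bases in an ESC H3K27me3 peak. The downstream one was not. Wnt5a and Wnt11 thus differed in NSCs, where the TSS was in an H3K27me3 peak at Wnt11 and in none at Wnt5a.

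Wnt1, the ligand of the midbrain and hindbrain border, and Wnt10b, known in bone and fat cells, are neighbours on chromosome 15 that point away from each other with 11707 bp between their TSSs. Wnt10b (ENSMUSG00000022996.7) runs from 98602184 to 98608581 on the reverse strand and Wnt1 (ENSMUSG00000022997.8) from 98620288 to 98624268 on the forward strand. In ESCs each gene had its own Ring1b peak, of 6000 bp at Wnt10b and 5200 bp at Wnt1. The Wnt1 peak covered the whole gene with its 5 exon blocks. Each gene also had 1 peak of Cbx2, Ezh2 and H3K27me3. The Cbx2 peak held the TSS at Wnt10b, and at Wnt1 it lay inside the gene, from 713 bp to 3712 bp downstream of the TSS. Of the 11706 bp between the genes, Ring1b peaks covered 4106 bp (35.1%), Ezh2 peaks 1106 bp (9.45%), H3K27me3 peaks 706 bp (6.03%) and Cbx2 peaks 419 bp (3.58%).

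In NSCs Wnt1 held the only Ring1b peak in any of the 10 windows. It was 1600 bp wide, from 913 bp to 2512 bp downstream of the TSS, touched 3 of the 5 exon blocks and lay wholly inside the ESC Ring1b peak. It included the second annotated transcript start of Wnt1 but not the TSS. An NSC H3K27me3 peak of 3400 bp enclosed it, from 513 bp to 3912 bp, as wide as the ESC peak of 3400 bp but lying further downstream, with 2200 bp shared. At Wnt10b there was no NSC Ring1b peak, and an H3K27me3 peak of 2000 bp lay within the ESC peak of 2400 bp and ended at the same position, 19 bp upstream of the TSS. Over the span from 10 kb before Wnt10b to 10 kb after Wnt1, the share covered by H3K27me3 was 13.8% in ESCs and 12.8% in NSCs, and the share covered by Ring1b was 26.6% and 3.80%.

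Wnt6, which acts between epithelia and mesenchyme, and Wnt10a, a ligand of tooth, hair and skin, follow each other in the same, forward, direction on chromosome 1. Wnt6 (ENSMUSG00000033227.6) runs from 74818466 to 74831893 and Wnt10a (ENSMUSG00000026167.8) from 74838090 to 74850753, with 6196 bp between them. Their span, with 10 kb on both sides, held 4 ESC Ring1b peaks that covered 41.3% of it. One of 3800 bp held the Wnt6 TSS, one of 3400 bp lay over the end part of Wnt6 and touched 3 of its 4 exon blocks, one of 5400 bp held the Wnt10a TSS, and one of 9000 bp ran from inside Wnt10a past its end. Wnt10a had the most covered window of the group, at 54.5% for ESC Ring1b, and Wnt6 followed at 35.6%, but these windows overlap and share peaks. The only Cbx2 peak of the span, 3400 bp wide, held the Wnt6 TSS. Ezh2 had peaks at both genes, with one of 4200 bp over the Wnt10a TSS and one of 1200 bp at the end of Wnt10a. At Wnt6 an Ezh2 peak of 1600 bp ended 66 bp short of the TSS, less than the 200 bp step of the peak ends. The combination of peaks at the Wnt6 TSS, with Ring1b, Cbx2 and H3K27me3 and without Ezh2 in ESCs and with H3K27me3 in NSCs, occurred at 3 protein-coding genes. At Wnt6 the lack of Ezh2 in it rests on those 66 bp, since the Ring1b peak at the TSS overlaps the Ezh2 peak.

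In NSCs the span of Wnt6 and Wnt10a held no Ring1b peak and 3 H3K27me3 peaks that covered 22.6% of it, compared with 5 peaks and 16.1% in ESCs. The NSC peak at the Wnt6 TSS was 2800 bp wide and the ESC peak 1400 bp, and both ended at the same position 1134 bp into the gene. At Wnt10a a peak of 3600 bp began 111 bp past the TSS, which the ESC peak of 2400 bp had held. Toward the end of Wnt10a, where ESCs had 2 H3K27me3 peaks of 1600 bp, NSCs had 1 of 5400 bp. The ESC H3K27me3 peak of 1400 bp near the end of Wnt6 had no counterpart. All 9000 bp of NSC H3K27me3 in the Wnt10a window lay under ESC Ring1b peaks.

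**Figure D2:**
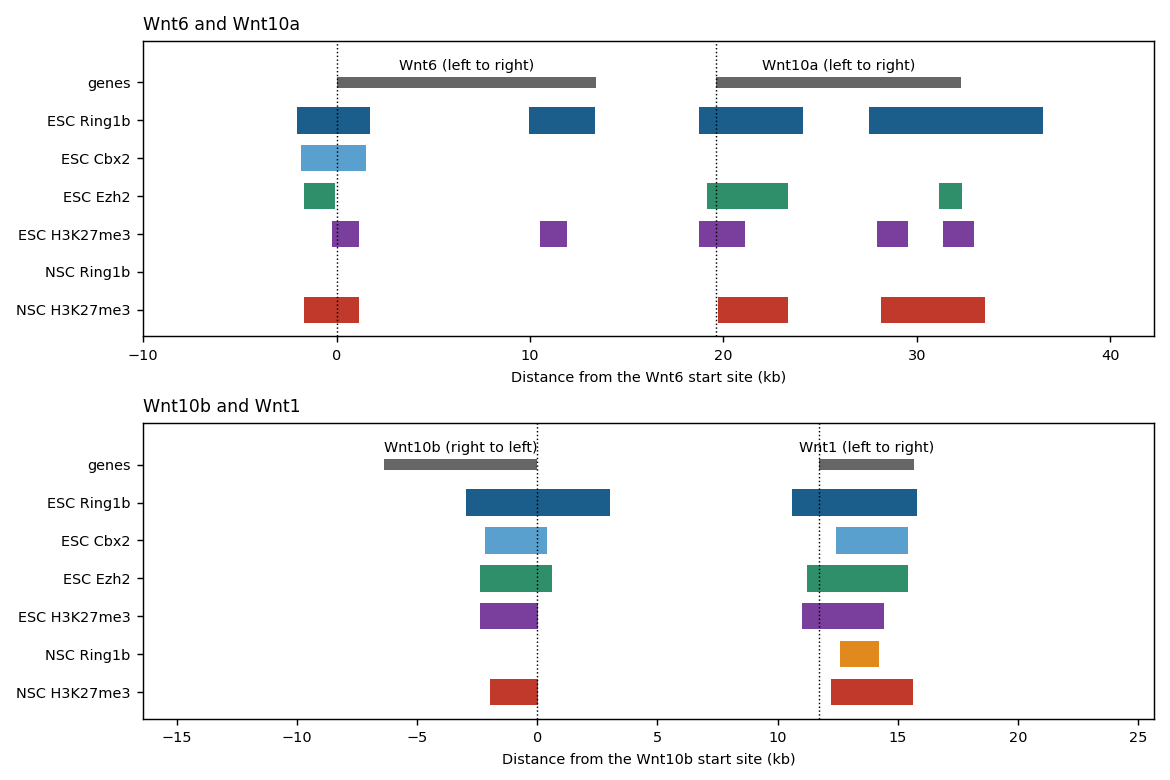
Peaks of the 6 lists (colored bars, 1 library each) across both pairs of neighbouring Wnt genes, by distance in kb from the TSS of the left gene, with genes in grey and TSSs as dotted lines. The NSC Ring1b row is empty at Wnt6 and Wnt10a and holds 1 bar of 1600 bp at Wnt1, while NSC H3K27me3 bars lie at all 4 genes.

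Between ESCs and NSCs, Ring1b peaks at the Wnt genes were missing at more genes, and over more of their length, than H3K27me3 peaks. The TSS lay in an NSC Ring1b peak at 0 of the 10 genes, against 1.74% of all genes and 16.7% of the 1571 genes with ESC Ring1b at the TSS. A Ring1b peak anywhere in the window was found at 1 gene, Wnt1, against 4.64% of all genes and 27.1% of the 1571. Counts of 0 or 1 among 10 genes do not stand apart from such shares. Covered length was 70.4 kb in ESCs and 1.60 kb in NSCs, so that NSC peaks covered 2.27% of the length that ESC peaks covered. The same ratio was 29.8% over the windows of the 1571 genes and 38.3% over all genes.

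H3K27me3 peaks held the TSS at 4 Wnt genes in NSCs, Wnt3a, Wnt6, Wnt10b and Wnt11, each of which had one in ESCs too. The shares were 1.77% of all genes, 19.8% of the 1571 Ring1b genes and 25.4% of the 964 genes with the TSS in an ESC H3K27me3 peak, to be read against 4 of the 8 Wnt genes with one. Wnt1, Wnt5a, Wnt7b and Wnt10a had the TSS in an H3K27me3 peak in ESCs and not in NSCs, and none of the 10 gained one. At Wnt1, Wnt3 and Wnt10a the NSC peak stopped within 1 kb of the TSS, and when a peak within 1 kb was counted the number in NSCs was 7 (2.57% of all genes). In the window, H3K27me3 peaks were found at 8 Wnt genes in NSCs, all but Wnt2 and Wnt5a, against 4.70% of all genes and 32.4% of the Ring1b genes. H3K27me3 without Ring1b over the TSS in NSCs was thus found at 4 of the 10 genes, and at 11.4% of the Ring1b genes. Since none of the 10 had its TSS in an NSC Ring1b peak, the 4 are the same genes as above.

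Covered length of H3K27me3 was 44.4 kb in ESCs and 27.2 kb in NSCs, a ratio of 61.3%, next to 65.0% over the Ring1b genes and 67.2% over all genes. These ratios compare lengths and are not shares of ESC bases kept. Gene by gene, between 0% (Wnt5a) and 83.3% (Wnt10b) of the ESC H3K27me3 bases in the window lay under NSC H3K27me3 peaks. Over the windows of all genes, NSC Ring1b peaks covered 0.224% and NSC H3K27me3 peaks 0.245%, and over the Wnt windows 0.371% and 6.30%. The genes did not move alike. The share of the window under H3K27me3 was higher in NSCs at Wnt10a (21.4% in ESCs and 27.6% in NSCs) and Wnt6 (15.6% and 19.1%), whose windows share 2 of the ESC peaks and 1 of the NSC peaks. At Wnt6 the difference came from the peak at Wnt10a, since the peaks away from Wnt10a summed to 2800 bp in both cell types, and the share of the Wnt6 gene body under H3K27me3 was 18.9% in ESCs and 8.45% in NSCs. It was equal at Wnt1 (14.2% in both) and lower at Wnt10b (9.09% and 7.58%), Wnt3a (7.97% and 5.42%), Wnt11 (10.5% and 5.99%), Wnt3 (14.1% and 4.70%), Wnt7b (11.1% and 1.81%) and Wnt5a (10.8% and 0%). Peak ends move in steps of 200 bp, and the difference at Wnt10b is between 2400 bp and 2000 bp. For Ring1b the share was lower in NSCs at all 10 genes, from a range of 2.92% (Wnt2) to 54.5% (Wnt10a) in ESCs to 6.67% at Wnt1 and 0% elsewhere. The NSC lists hold fewer peaks than the ESC lists, and the part of this in the differences was not tested.

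**Figure D3:**
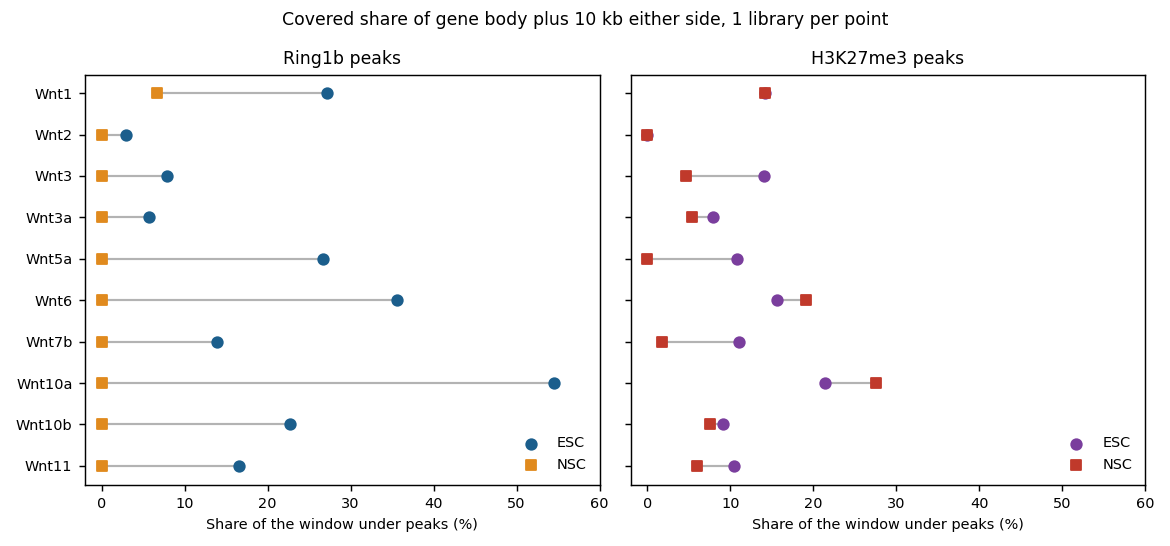
Share of each Wnt window (gene body plus 10 kb on either side, in percent) under Ring1b peaks (left) and H3K27me3 peaks (right) in ESCs (circles) and NSCs (squares), with 1 library per point and no error bars. Ring1b squares lie at 0 except for Wnt1 at 6.67%, while H3K27me3 squares reach 27.6% at Wnt10a.

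Base composition was not itself used to choose the genes. It is not independent of that choice, since Ring1b results were known and Ring1b genes differ in composition from all genes. In the 1 kb around the TSS, GC content of the 10 genes ranged from 58.2% (Wnt2) to 70.0% (Wnt3a and Wnt6), with a median of 63.0%, against 54.7% over all genes and 63.2% over the 1571 Ring1b genes. The ratio of observed to expected CpGs had a median of 0.641, against 0.549 and 0.747. It was lowest at Wnt10a (0.394) and highest at Wnt11 (0.818). A wider measure counted the bases within 5 kb of the TSS that lie in a 200 bp stretch with more than 50% GC and a CpG ratio above 0.6. Its median was 2638 bp for the Wnt genes, 2072 bp for the Ring1b genes and 953.5 bp for all genes. The other 9 Wnt genes, described below, had a higher median GC content (68.3%) and CpG ratio (0.781) than the 10, and a lower median on this wider measure (1386 bp). The width of the ESC Ring1b peak at the TSS went from 1800 bp at Wnt2, with 1427 bp of such sequence, to 9800 bp at Wnt5a, with 4087 bp. Across the 10 genes, which share 1 library, Pearson's r was 0.78 and Spearman's rho 0.71, and without Wnt2 and Wnt5a, the genes at the ends of the range, r was 0.54 and rho 0.42. Over the 1571 Ring1b genes r was 0.51 and rho 0.74. Wnt10a stood apart with a Ring1b peak of 5400 bp over 1456 bp of such sequence. The genes with NSC H3K27me3 at the TSS (1966 bp to 3390 bp) lay within the range of the others (1427 bp to 4087 bp). Ring1b peaks at the 10 TSSs had a median width of 5300 bp, against 2600 bp over all genes with such a peak.

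**Figure D4:**
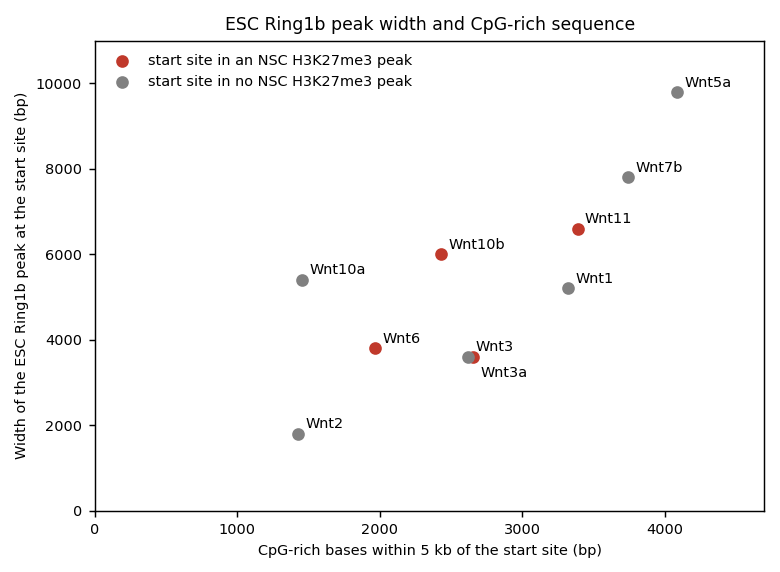
Width of the ESC Ring1b peak at the TSS (bp, 1 library) against CpG-rich bases within 5 kb of the TSS (bp) for the 10 Wnt genes, in red where the TSS lay in an NSC H3K27me3 peak and in grey elsewhere. Peaks run from 1800 bp at Wnt2 to 9800 bp at Wnt5a, and the red points (1966 bp to 3390 bp of CpG-rich sequence) lie within the range of the grey points (1427 bp to 4087 bp).

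The other 9 Wnt genes (Wnt2b, Wnt4, Wnt5b, Wnt7a, Wnt8a, Wnt8b, Wnt9a, Wnt9b and Wnt16) had Ring1b at the TSS in ESCs at 6 of 9. Their TSS was in an H3K27me3 peak at 5, in an Ezh2 peak at 3 and in a Cbx2 peak at 0. In NSCs 2 had the TSS in a Ring1b peak and 1 in an H3K27me3 peak. Wnt2b, a ligand known from the eye and lung, was the 1 Wnt gene of the 19 whose TSS lay in both NSC lists, with peaks of 1200 bp (Ring1b) and 2200 bp (H3K27me3). The other TSS in an NSC Ring1b peak, 1000 bp wide, was that of Wnt16, named here after its value was seen, which had no ESC Ring1b peak in its window. Counted over whole windows, NSC Ring1b peaks were found at 4 of the 9 genes and NSC H3K27me3 peaks at 3. Covered length in these windows was 17.2 kb in ESCs and 6.80 kb in NSCs for Ring1b (39.5%), and 17.6 kb and 4.80 kb for H3K27me3 (27.3%). The 39.5% is not a share of Ring1b kept. Of the 6.80 kb, 3400 bp lay at Wnt16, and only the 1200 bp peak of Wnt2b overlapped an ESC Ring1b peak. In the 10 genes above the lower ratio was that of Ring1b (2.27% against 61.3% for H3K27me3), as it was in the windows of the 56 pathway genes described next (19.5% against 37.1%), of the 1571 Ring1b genes and of all genes, so that the other 9 Wnt genes were the set with the opposite order. Whether the groups differ was not tested, since genes are not replicates and the 10 were chosen with results of these lists known.

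Further along the pathway, 56 genes were counted, to be read against the shares of all genes with the TSS in a peak (7.03% for ESC Ring1b, 4.31% for ESC H3K27me3, 2.56% for Ezh2, 1.15% for Cbx2, 1.74% for NSC Ring1b and 1.77% for NSC H3K27me3). At shares this low, a count of 0 in a class of 15 or fewer does not stand apart from all genes, and a count of 1 rests on a single gene. Among the 15 receptors and coreceptors, 8 had the TSS in an ESC Ring1b peak, 3 in H3K27me3, 1 in Ezh2 and 0 in Cbx2, and none in an NSC peak. Of 15 secreted modulators, which bind Wnt proteins, their coreceptors or R-spondin receptors, 9 had the TSS in ESC Ring1b, 6 in H3K27me3 and 4 in Ezh2, and in NSCs 1 in Ring1b and 2 in H3K27me3. Notum, an enzyme that inactivates Wnt proteins, was the 1 with both NSC peaks. The 10 cytoplasmic components, including β-catenin (Ctnnb1), Apc, Axin1 and Gsk3b, had no TSS in a peak of any list, a count that the all-gene shares would also give, and 1 of them, Axin2, named after its value was seen, had an ESC Ring1b peak in its window. Of the 7 nuclear factors only Lef1, a DNA-binding partner of β-catenin, had its TSS in a peak, and it lay in peaks of all 6 lists. Of 7 genes for receptor turnover and its regulators, 2 had the TSS in ESC Ring1b and 1 in ESC H3K27me3. The secretion genes Porcn and Wls had the TSS in NSC Ring1b and in ESC Ring1b, respectively, and in no other list.

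**Figure D5:**
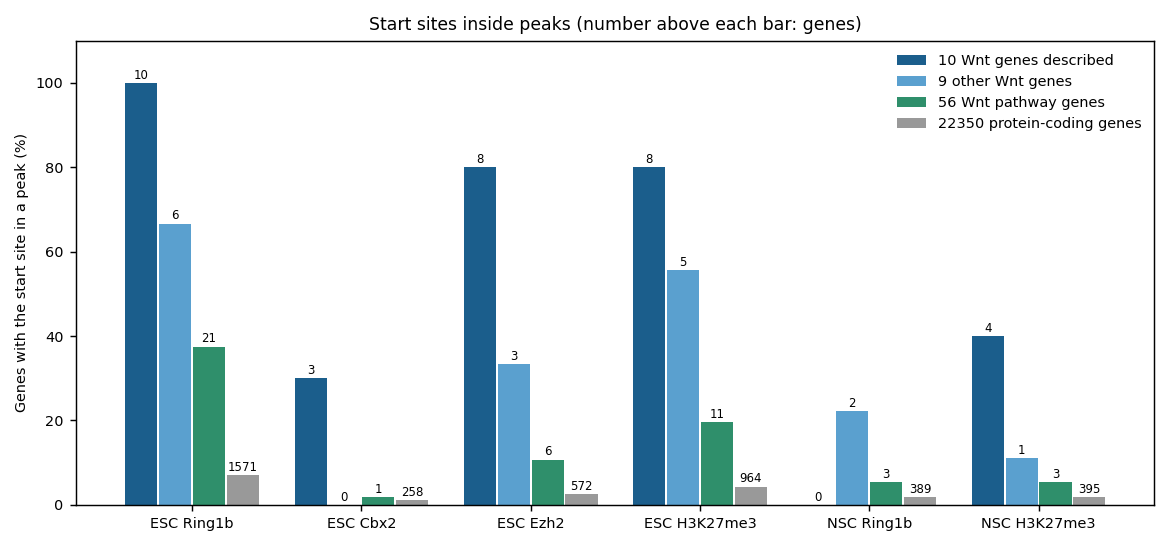
Percent of genes with the TSS inside a peak of each list (1 library each), for the 10 Wnt genes, the 9 other Wnt genes, 56 pathway genes and all 22350 protein-coding genes, with the number of genes above each bar. The bar of the 10 Wnt genes is at 10 of 10 for ESC Ring1b and at 0 for NSC Ring1b, a count that the share of all genes would also give.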

How the data were processed

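ChIP-seq peaks of 6 libraries were used, and 4 input libraries, which have no list here, were not analysed. To make the deposited lists, the authors mapped paired-end tags to mm9 (the processing notes name BWA, the paper Bowtie), compared ChIP with input in 1 kb windows every 200 bp by a negative binomial distribution, with a size parameter set by eye, and joined nearby enriched windows. The paper, unlike the labels, states an EGS crosslinking step for Ring1b. Each deposited list gives peak coordinates alone, counted here from 1, without score. Depth is unknown, so no interval is given.

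Start sites, exons and sequence came from mm9 (NCBIM37, GENCODE annotation), and 0 peaks ended beyond a chromosome of that build. Overlap was 1 bp or more. Python 3.11.15 with numpy 2.4.6, scipy 1.17.1, pysam 0.24.0 and matplotlib 3.10.9 was used, and the counting was tested on simulated peaks. No p-value was computed, since each cell type and target has 1 library. The genes named are the 10 Wnt genes, the other Wnt genes, the marker genes, and pathway genes with the TSS in all ESC lists or both NSC lists. Outside this rule, Ctnnb1, Apc, Axin1, Gsk3b, Axin2, Porcn and Wls are also named. Of the neural marker genes, Sox1 was not matched in the annotation. The genes and lists were chosen with earlier results of these data known.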

Additional observations from a re-analysis of the deposited data

How the results depend on the processing

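Of 114 values recomputed under alternatives, 97 stayed within 1.5 times the count (for covered shares, within the 95% exact binomial interval over 1 kb units). Units under 1 peak are not independent, so that interval is a labelling rule and no measure of spread. It is loose for small shares: NSC Ring1b counted as unchanged at 0.3706% of windows and 0.6304% of gene bodies alone. Counting the start of any annotated transcript, TSSs in peaks numbered 5 for ESC Cbx2 and 1 for NSC Ring1b, Ring1b was kept at 1 gene, and H3K27me3 was missing in NSCs at 2. Counting a TSS within 1 kb of a peak gave 5 for ESC Cbx2, 1 for NSC Ring1b (kept at 1 gene) and 7 for NSC H3K27me3, with H3K27me3 kept at 7 and missing at 2. With peaks at least 2 kb wide, NSC Ring1b was left in 0 windows (0% covered) and 1 gene, Wnt6, counted as gaining H3K27me3, since its ESC peak of 1400 bp was removed. With 20 kb on either side, 2 windows held an NSC Ring1b peak, those of the neighbours Wnt1 and Wnt10b, and it was the same peak at Wnt1 in both. ESC Ring1b covered 20.03% of gene bodies alone and 20.11% with 5 kb on either side, and ESC H3K27me3 covered 14.28% of gene bodies. At Wnt1 the absence of NSC Ring1b from the TSS depends on which transcript start is used. No paired analysis was possible because each cell type and target has 1 library and no result comes from a test. Binding under the calling threshold, and depth, cannot be read from the lists.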
